A study of Mus musculus with 6 samples.

Results

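Perilipins and CIDE proteins coat the lipid droplet, the store of triglyceride inside a fat cell. The 8 genes described here were chosen by name, the perilipins Plin1 to Plin5 and the CIDE genes Cidea, Cideb and Cidec, under their current symbols or the older ones Plin, Adfp, M6prbp1 and Fsp27. The annotation of the array gave 8 probe sets with 1 of these symbols, out of 34945 with a single symbol, and they cover 7 of the 8 genes. Plin5 had 2 probe sets and the others 1 each, while Plin1 had none and was not analysed here. All 7 measured genes were bright enough to be tested, out of 18193 genes measured and 11200 tested.

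Epididymal white adipose tissue, the fat pad beside the epididymis, was taken from male mice 10 weeks old on a mixed C57BL6;129Sv background. One group carried the ldi allele of Pparg on 1 chromosome (Pparg ldi/+) and was described by the submitters as lipodystrophic, and the other was litter-matched wild type. Each group had 3 mice and each mouse 1 Affymetrix MOE430v2.0 array, and this number limits the precision. Transcripts of the whole pad were measured, so fewer cells of a type and less RNA per cell cannot be told apart. Signals below are deposited intensities scaled to a common trimmed mean of 500 per array. Log2 differences are Pparg ldi/+ minus wild type after adding 32, which understates the change of dim genes. Rose and fell mean a Benjamini-Hochberg adjusted p below 0.05 in limma over all genes tested.

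Plin1 is the main perilipin of the fat cell and guards the droplet against lipases until it is phosphorylated. Plin2 and Plin3 coat small and new droplets in many cell types, including macrophages. Plin4 coats nascent droplets in fat cells, and Plin5 serves tissues that burn fatty acids. The CIDE proteins act where droplets touch. Cidec, also called Fsp27, passes triglyceride from smaller to larger droplets in white fat, Cidea does so in brown fat, and Cideb works in liver and intestine, where it also acts on lipoprotein particles. Several of these genes are known targets of PPARG, the nuclear receptor of adipocyte differentiation.

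The altered gene was lower on the arrays labelled Pparg ldi/+. Pparg signals were 4378, 4440 and 4998 on the wild-type arrays and 1732, 1709 and 1901 on the Pparg ldi/+ arrays, a difference of -1.35 (SE 0.084, limma adjusted p = 1.05e-05). The labels do not say which transcript positions the Pparg probes read, so these values give the level only. Of 9 white fat cell markers tested, 8 also fell, so a lower Pparg level does not show which arrays carry the allele. The pad held its defining transcripts: Adipoq, the adiponectin gene, had a mean signal of 12010 in Pparg ldi/+ fat and of 26686 in controls. Pparg ldi/+ arrays 1 and 2 also carried epididymal transcripts, with a summed signal of 18716 and 26096 over 9 measured epididymis markers. The sum was 576 on array 3 and 413 to 1040 in wild type. Lcn5 and Spint4 were instead highest on wild-type array 1, at 457 and 41.1. The other measured markers were higher on Pparg ldi/+ arrays 1 and 2 than on any wild-type array. Member results are therefore also given from array 3 alone against the wild-type arrays, a fit that takes the spread of a single sample to equal that of the controls. In that fit 6.54% of genes rose and 7.94% fell, and of the 6 members tested 1 rose and 2 fell. Cideb was below the brightness filter there. Across the genes tested, arrays correlated at 0.971 to 0.981 within a genotype and at 0.885 to 0.909 between genotypes.

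Of the 7 genes tested, Plin4, Cidec, Cidea and Plin5 fell in Pparg ldi/+ fat and Plin2 and Plin3 rose, while Cideb did not pass. Over all genes 32.8% passed, 16.3% as rises and 16.4% as falls. The calls were of unequal standing. Those of Plin4, Cidec and Plin2 held under all 20 alternatives tried, whereas Plin3 lost its call in 11 of them, Cidea in 11 and Plin5 in 8. The groups did not overlap for 5 of the 7, namely Plin2, Plin3, Plin4, Plin5 and Cidec, where 47.6% of all genes did not overlap. The median difference of all genes tested was close to 0, at -0.0044.

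**Figure D1:**
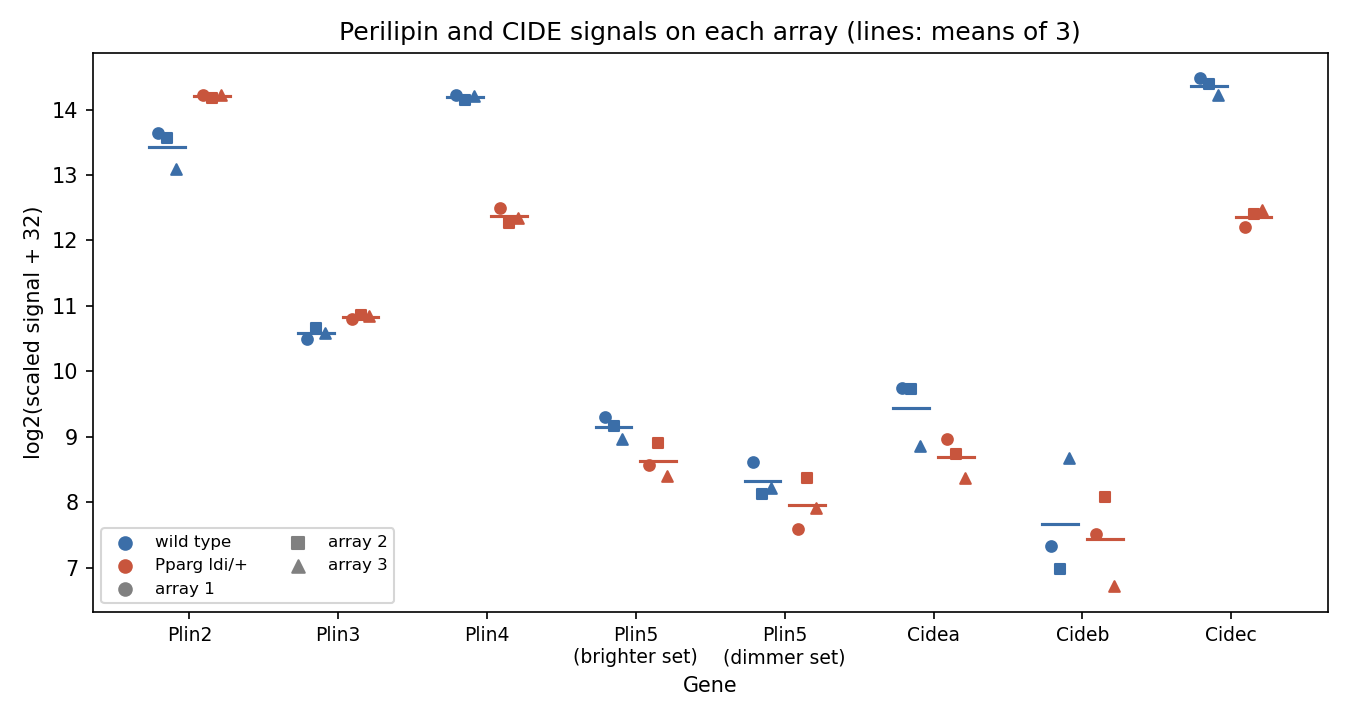
Log2 of the scaled signal plus 32 (vertical axis) for each of the 8 probe sets (horizontal axis) on 3 wild-type and 3 Pparg ldi/+ arrays, with lines at the group means. Plin4 and Cidec show the widest gaps, with Pparg ldi/+ means of 12.4 and 12.4 below wild-type means of 14.2 and 14.4, and Plin2 shows the opposite order.

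The largest differences among these genes were in the droplet proteins typical of white fat cells. Cidec signals were 22778, 21523 and 19045 on the wild-type arrays and 4710, 5410 and 5653 on the Pparg ldi/+ arrays. Every Pparg ldi/+ array lay far below every wild-type array, and the SD was 9.0% of the mean in wild type and 9.31% in Pparg ldi/+. Cidec fell 4.0-fold, by 2.0 on the log2 scale (95% confidence interval -2.21 to -1.79, SE 0.094, limma adjusted p = 2.73e-06). Of the 11200 genes tested, 70 had a lower difference. With Pparg ldi/+ array 3 alone the difference was -1.89 (limma adjusted p = 0.000348).

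Plin4 signals were 19122, 18054 and 18861 in wild type and 5773, 4912 and 5183 in Pparg ldi/+. No other member varied as little among the wild-type arrays, with an SD of 2.98% of the mean, and again the groups lay far apart. Plin4 fell 3.52-fold (log2 -1.82, 95% confidence interval -1.99 to -1.65, SE 0.075, limma adjusted p = 2.06e-06), and 95 genes had a lower difference. With array 3 alone it stood at -1.84 (limma adjusted p = 0.000191). Falls of 2-fold or more past the threshold were seen in 3.63% of the genes tested. An exact two-sided permutation test of the 6 values gave p = 0.1 for Cidec and for Plin4, the smallest that 3 against 3 arrays allow.

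Both genes moved with the markers of white fat cells. Of 9 such markers tested, 8 fell and 0 rose, with a median difference of -1.15, where 16.4% of all genes fell. Their summed signal was 84889 to 99688 in Pparg ldi/+ and 154713 to 174076 in wild type. Their part in the falls of Plin4 and Cidec was not tested.

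Plin2 went the other way. This gene encodes the perilipin also called adipophilin, found on droplets of most cell types. Its signals were 12720, 12146 and 8666 in wild type and 19084, 18442 and 19132 in Pparg ldi/+. The Pparg ldi/+ arrays were within 2.04% (SD) of their mean, the wild-type arrays varied by 19.6%, and wild-type array 3 was the lowest. Plin2 rose 1.71-fold (log2 0.77, 95% confidence interval 0.48 to 1.07, SE 0.131, limma adjusted p = 0.00222), and 809 genes had a higher difference. Rises of 1.5-fold or more past the threshold were seen in 9.29% of the genes tested. Without wild-type array 3 the difference was 0.60, still past the threshold (limma adjusted p = 0.000295). With Pparg ldi/+ array 3 alone it was 0.79 (limma adjusted p = 0.0499).

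Plin3, also known as TIP47 and present at low droplet load in many cells, differed little. Its signals were 1411, 1582 and 1511 in wild type and 1746, 1819 and 1811 in Pparg ldi/+, so the groups lay apart by a narrow gap. Plin3 rose 1.19-fold (log2 0.25, 95% confidence interval 0.07 to 0.43, SE 0.080, limma adjusted p = 0.0407). The call ended without Pparg ldi/+ array 1 (0.27), array 2 (0.24) or array 3 (0.24), and without wild-type array 1 (0.21) or array 3 (0.26). With Pparg ldi/+ array 3 alone it was 0.27 (limma adjusted p = 0.282).

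Macrophage markers were higher in the same samples as Plin2 and Plin3. All 17 markers tested rose, against 16.3% of all genes, with a median difference of 1.52. With Pparg ldi/+ array 3 alone their median difference was 1.54. Their summed signal was 141379 to 145514 in Pparg ldi/+ and 50748 to 68231 in wild type, and the mean of Gpnmb, a glycoprotein of lipid-laden macrophages, was 808 in wild type against 4880. Their part in the rises of Plin2 and Plin3 was not tested. Of 7 lymphocyte markers listed, 3 were tested and rose: Cd22, Il7r and Cd79b. Cd79b passed the brightness filter only through its Pparg ldi/+ signals of 207 to 274, against 66.4 to 96.0 in wild type. Cd3e, Cd3g and Cd79a were too dim to test. Endothelial markers fell in 7 of 7, where 16.4% of all genes fell. Mesothelial markers fell in 4 of 6 tested, among them Msln at -1.62 and Krt19 at -1.23. Of 8 stromal progenitor markers 3 rose and 2 fell, with a median difference of 0.027. Over all genes 16.3% rose and 16.4% fell. The part of these cell types in the member differences was not tested.

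The opposite shifts of Plin2 and Plin4 were seen within each Pparg ldi/+ array. Measured from the wild-type mean, the log2 difference of Plin2 minus Plin4 was 0.17, 0.19 and -0.36 on the wild-type arrays and 2.48, 2.66 and 2.64 on the Pparg ldi/+ arrays, a mean shift of 2.59 ± 0.099 (SD, n = 3). The exact two-sided permutation p was 0.1, the smallest possible here. Plin4 and Cidec moved alike by comparison: Plin4 minus Cidec shifted by 0.18 ± 0.245 (SD, n = 3, exact permutation p = 0.3). Its values on the Pparg ldi/+ arrays were 0.465, 0.035 and 0.049. Plin2 minus Plin3 shifted by 0.52 ± 0.054 (SD, n = 3, exact permutation p = 0.1). The SDs after ± are those of the Pparg ldi/+ arrays. The wild-type arrays had SDs of 0.312 (Plin2 minus Plin4), 0.138 (Plin4 minus Cidec) and 0.329 (Plin2 minus Plin3). These pairs were chosen after the values were seen, because the planned pair needed Plin1.

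**Figure D2:**
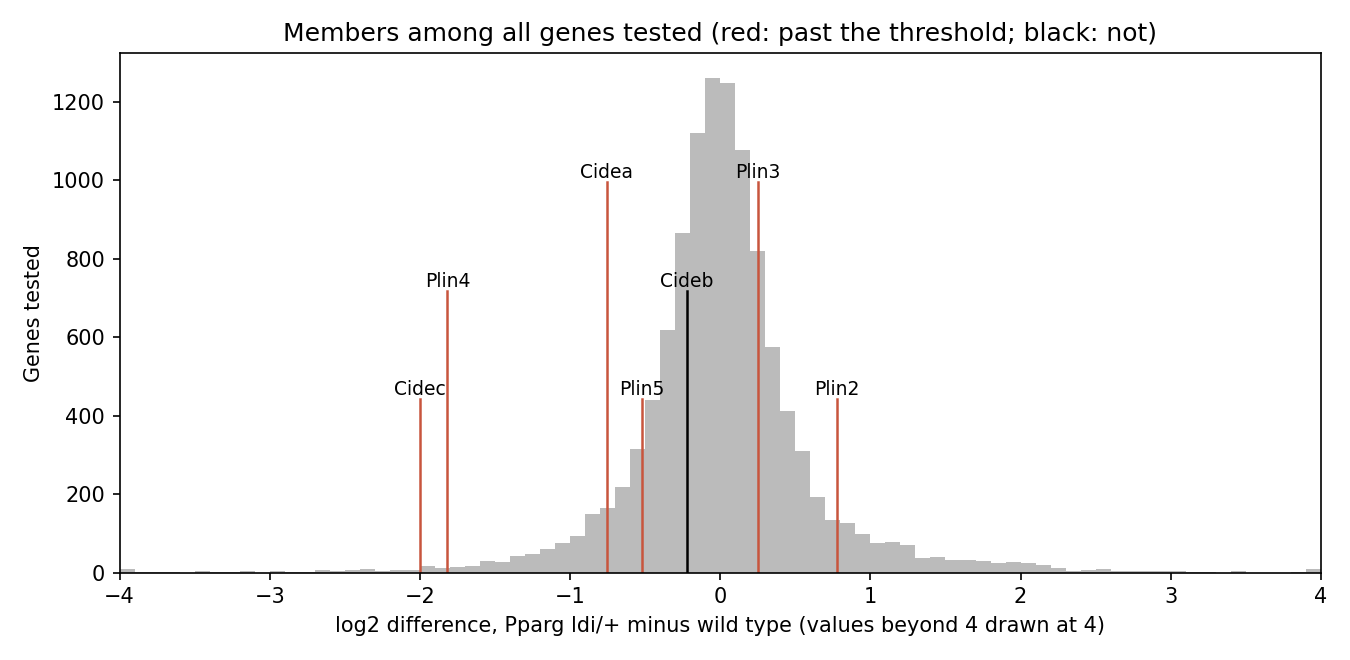
Histogram of the log2 differences, Pparg ldi/+ minus wild type, of the 11200 genes tested (horizontal axis, values beyond 4 drawn at 4; vertical axis, number of genes), with the 7 measured members as lines. Cidec at -2.0 and Plin4 at -1.82 lie in the lower tail below the 5th percentile of -0.86, and Plin2 at 0.77 lies below the 95th percentile of 0.99.

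The promoters of the members with the firmest or opposite shifts are shown so that the fallen pair, Plin4 and Cidec, can be set beside the risen pair, Plin2 and Plin3. Each window holds 250 bases before and 50 after a transcription start, read 5′ to 3′ from RefSeq, build GRCm38.p6. Windows matched by symbol for 7 of the 8 genes, all but Cidea, and Cidec had 2 annotated starts. Capitals mark matches, on either strand, to AGGTCA (the element read by nuclear receptors), to its direct repeat spaced by 1 base of any kind, DR1, with up to 2 mismatches (the arrangement bound by PPARG with RXR), to the E-box CACGTG, to TATAAA and to the GC box GGGCGG.
Plin2 at chr4:86670010-86670309, minus strand: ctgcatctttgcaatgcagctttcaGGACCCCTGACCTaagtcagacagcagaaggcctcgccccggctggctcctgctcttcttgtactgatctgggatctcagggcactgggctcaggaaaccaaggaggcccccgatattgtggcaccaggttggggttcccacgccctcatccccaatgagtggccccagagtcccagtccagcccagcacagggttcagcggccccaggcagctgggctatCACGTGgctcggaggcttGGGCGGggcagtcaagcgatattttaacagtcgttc
Plin3 at chr17:56290462-56290761, minus strand: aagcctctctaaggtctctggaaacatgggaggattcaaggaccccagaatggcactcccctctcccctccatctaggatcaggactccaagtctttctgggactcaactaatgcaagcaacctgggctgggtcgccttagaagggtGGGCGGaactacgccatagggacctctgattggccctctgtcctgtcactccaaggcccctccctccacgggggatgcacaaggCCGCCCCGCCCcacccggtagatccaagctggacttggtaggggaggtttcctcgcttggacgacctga
Plin4 at chr17:56109733-56110032, minus strand: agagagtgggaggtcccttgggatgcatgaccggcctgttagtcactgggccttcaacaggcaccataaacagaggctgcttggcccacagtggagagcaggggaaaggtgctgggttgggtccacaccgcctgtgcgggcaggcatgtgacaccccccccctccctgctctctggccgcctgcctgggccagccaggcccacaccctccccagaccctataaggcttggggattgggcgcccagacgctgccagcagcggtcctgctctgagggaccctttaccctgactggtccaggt
Cidec at chr6:113434715-113435014, minus strand: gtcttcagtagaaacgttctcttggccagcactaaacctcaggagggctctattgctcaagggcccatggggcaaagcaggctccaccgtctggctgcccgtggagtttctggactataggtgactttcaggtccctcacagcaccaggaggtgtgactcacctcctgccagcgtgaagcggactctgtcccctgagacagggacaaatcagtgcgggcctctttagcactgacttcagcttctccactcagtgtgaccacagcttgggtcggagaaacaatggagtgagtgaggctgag
Cidec at chr6:113435711-113436010, minus strand: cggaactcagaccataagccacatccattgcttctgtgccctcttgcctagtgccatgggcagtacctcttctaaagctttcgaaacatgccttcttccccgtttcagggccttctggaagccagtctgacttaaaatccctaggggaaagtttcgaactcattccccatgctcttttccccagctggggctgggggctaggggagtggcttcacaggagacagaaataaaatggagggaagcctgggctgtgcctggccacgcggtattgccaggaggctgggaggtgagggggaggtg

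In these windows Plin2 held the DR1 repeat with up to 2 mismatches once, starting at -225 on the minus strand of the window and containing its AGGTCA. Of 32851 promoter windows of this length, 3.86% held such a repeat and 0.0396% held it without mismatch. AGGTCA alone was in 16.3% of windows. Plin2 also held CACGTG, at -4, which 7.15% of windows share, and GGGCGG at +15. Plin3 held GGGCGG 3 times, where 35.7% of windows hold it at least once. The windows of Plin4 and both windows of Cidec held none of these 5 motifs, which says only that the letters are not there. TATAAA was in 13.6% of all windows and in none of the 5 shown. Of TTGCNNAA, a C/EBP motif found in 10.8% of windows, 1 match lay in the first of the Cidec windows, at -198, and 0 in the other 4. The 2 windows of Plin5, not shown, each held 1 AGGTCA, at +14 and at -170, and 2 GGGCGG, so GGGCGG was found in a gene that fell as well as in the risen pair. The Cideb window held 1 GGGCGG and 1 TATAAA, and the Plin1 window held 2 TTGCNNAA. None of these 4 windows held the DR1 repeat.

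Cidea and Plin5, genes of fat-burning cells, were dimmer and fell by less. Cidea signals were 828, 816 and 431 in wild type and 466, 392 and 300 in Pparg ldi/+. Wild-type array 3 lay below Pparg ldi/+ array 1, so the groups overlapped. Cidea fell 1.69-fold (log2 -0.76, 95% confidence interval -1.33 to -0.18, SE 0.252, limma adjusted p = 0.0486; exact permutation p = 0.2). The call ended without Pparg ldi/+ array 1 (-0.89), array 2 (-0.78) or array 3 (-0.60) and without wild-type array 1 (-0.60) or array 2 (-0.61). It held without wild-type array 3, at -1.05. With Pparg ldi/+ array 3 alone the difference was -1.07 (limma adjusted p = 0.0925). Of 6 brown and beige fat markers tested, 2 rose and 0 fell, where 16.3% of all genes rose and 16.4% fell. Ucp1, the uncoupling protein, was too dim to test, with signals of 10.5, 56.1 and 6.38 on wild-type arrays against 308, 127 and 120 on Pparg ldi/+ arrays.

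The brighter probe set of Plin5 read 596, 542 and 470 on the wild-type arrays and 347, 446 and 305 on those of Pparg ldi/+. The groups did not overlap, though Pparg ldi/+ array 2 came close to wild-type array 3. Plin5 fell 1.44-fold (log2 -0.52, 95% confidence interval -0.88 to -0.16, SE 0.159, limma adjusted p = 0.0344). The dimmer probe set read 361, 248 and 265 in wild type and 160, 298 and 209 in Pparg ldi/+, and its groups overlapped. When every probe set was tested, 29.7% of 19651 passed, and this dimmer set did not, at -0.37 (limma adjusted p = 0.259). The mean of both sets gave -0.44 and no call (limma adjusted p = 0.0901). The call also ended without Pparg ldi/+ array 1 (-0.49) or array 3 (-0.41) and without wild-type array 1 (-0.45) or array 2 (-0.51), and with Pparg ldi/+ array 3 alone it was -0.74 (limma adjusted p = 0.0547). Skeletal muscle, which uses Plin5, had 2 of 9 markers bright enough to test and 0 called. The skeletal actin gene Acta1 read 2350, 872 and 703 on wild-type arrays against 805, 1424 and 851 on Pparg ldi/+ arrays, with wild-type array 1 the highest. The mean of the creatine kinase gene Ckm was 187 for wild type and 184 for Pparg ldi/+. The part of muscle RNA in the Plin5 difference was not tested.

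Cideb was the dimmest member, brighter than 39.9% of all genes measured. Its signals were 129, 94.2 and 376 in wild type and 151, 240 and 73.1 in Pparg ldi/+, and the groups overlapped throughout. The difference of -0.22 did not pass (95% confidence interval -1.31 to 0.86, limma adjusted p = 0.761), and that interval leaves room for changes beyond 2-fold in the downward direction. The sign turned without wild-type array 3, the brightest (0.28, no test, since Cideb then lay below the filter), and without Pparg ldi/+ array 3, the dimmest (0.14). Array 3 alone against wild type gave -0.94, also with no test. In RefSeq's gene table Cideb overlaps the gene Nop9, whose difference was 0.06 (limma adjusted p = 0.679). Hepatocyte and enterocyte markers, the cell types in which Cideb is best known, were mostly too dim to test, with 1 of 9 tested. That marker, the albumin gene Alb, fell 1.60-fold (limma adjusted p = 0.0103).

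**Figure D3:**
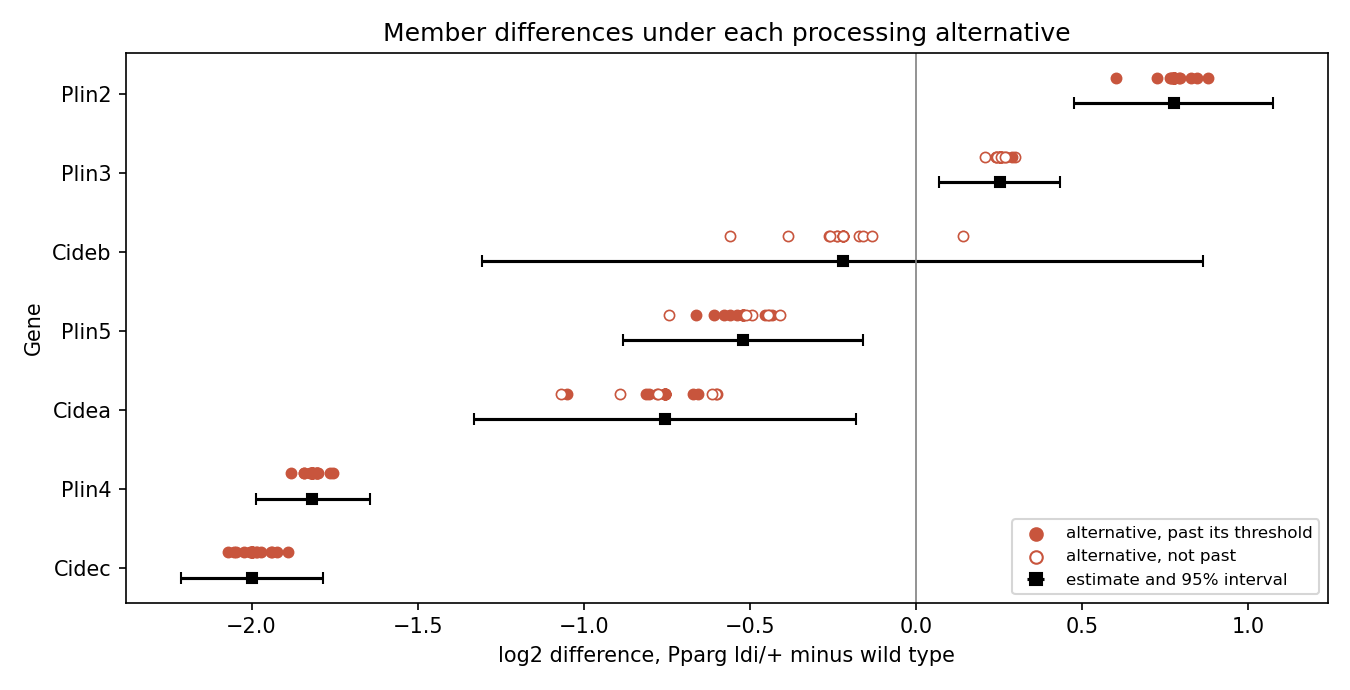
Log2 difference, Pparg ldi/+ minus wild type (horizontal axis), of each measured member (vertical axis): black squares are the estimates with 95% confidence intervals, and circles are the values under each processing alternative, filled where the gene passed that alternative's threshold. All circles of Plin2, Plin4 and Cidec are filled, those of Plin3, Plin5 and Cidea are mixed, and those of Cideb, drawn for the 16 alternatives that tested it, are open and span -0.56 to 0.14.

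Plin4 and Plin5 are neighbours in RefSeq's gene order. The next gene measured beyond Plin5, Lrg1, differed by -1.13 (limma adjusted p = 0.000501), and Sema6b after it by 0.19 (limma adjusted p = 0.535). On the other side Hdgfl2, whose gene overlaps Plin4 in that table, fell by 1.01 in the probe set read for it (limma adjusted p = 0.00371), while its 2 other probe sets stood at 0.33 and -0.31. These neighbours were named after their values were seen.

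Genes listed for lipolysis at the droplet mostly fell. The list holds lipases as well as genes that activate or restrain them, so its count gives no direction of lipolysis. Of 12 lipolysis genes tested, 8 fell and 0 rose, with a median difference of -0.51, where 16.4% of all genes fell and their median was -0.0044. Ces1d, a carboxylesterase that hydrolyses triglyceride, fell 3.65-fold (log2 -1.87, limma adjusted p = 9.65e-05). Lipe, the hormone-sensitive lipase that docks on phosphorylated Plin1, read 16362, 15255 and 15138 in wild type and 4937, 5714 and 4728 in Pparg ldi/+, and fell 3.04-fold (limma adjusted p = 4.54e-06). Pnpla3 fell 2.86-fold (limma adjusted p = 0.00436). Pnpla2, the adipose triglyceride lipase that starts lipolysis, fell by 0.39 (limma adjusted p = 0.00723). Abhd5, the lipase activator that Plin1 and Plin5 hold, differed by -0.16 and did not pass (limma adjusted p = 0.418). From Pparg ldi/+ array 3 alone the median of the list was -0.49.

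Genes that build and fill droplets mostly fell too. Of 11 tested, 9 fell and 0 rose, with a median of -0.53, where 16.4% of all genes fell. Gpat3, a glycerol-phosphate acyltransferase, read 2896, 4137 and 2744 in wild type and 699, 814 and 639 in Pparg ldi/+, and fell 4.34-fold (limma adjusted p = 2.97e-05). Dgat1, which makes triglyceride, fell 2.28-fold (limma adjusted p = 1.05e-05) and the monoacylglycerol acyltransferase Mogat1 fell 2.11-fold (limma adjusted p = 0.00164). From Pparg ldi/+ array 3 alone the median of the list was -0.55.

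Other proteins of the droplet surface went both ways. Of 18 tested, 6 rose and 3 fell, with a median of 0.05. Over all genes 16.3% rose and 16.4% fell, so the falls were near that share. Lpcat2, which makes phosphatidylcholine for the droplet's surface layer, rose 2.20-fold (limma adjusted p = 0.0258). The 3 that fell were the methyltransferase-like Mettl7a1 at -1.24 (limma adjusted p = 0.000373) and Mettl7b at -0.93 (limma adjusted p = 0.0101), and Cavin1, a coat protein of caveolae, at -0.59 (limma adjusted p = 0.000269). The 6 rises were not firm. Without Pparg ldi/+ array 1 or array 2, 3 of these genes rose, near the 16.3% share of the main fit. Without wild-type array 3 the count that fell was 5. With Pparg ldi/+ array 3 alone the list median was 0.10. The white fat cell markers above fell, as most lipolysis and droplet formation genes did. Lipe and Pnpla2 stand in both the white fat cell marker list and the lipolysis list. The macrophage markers above rose, opposite to the lipolysis and droplet formation lists. The part of either cell type in these lists was not tested.

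Of 12 regulators of member genes tested, 6 fell and 1 rose, with a median of -0.23. The 6 include Pparg, the altered gene. Over all genes 16.4% fell and 16.3% rose, so rises were not above that share. Beside Pparg itself, Cebpa fell 2.13-fold (limma adjusted p = 4.37e-06) and Rxra, the partner of PPARG on DNA, fell 1.88-fold (limma adjusted p = 0.000158). The 1 that rose was Nfe2l2, a regulator of antioxidant genes, at 0.40 (limma adjusted p = 0.00213). Without any 1 of the wild-type arrays the count that rose was 2, and with Pparg ldi/+ array 3 alone it was 0. Ppara, a receptor of fatty acid burning, was too dim to test, with 42.8 to 86.1 on Pparg ldi/+ arrays against 246 to 278 on wild-type arrays. Creb3l3, a liver factor that can drive Cidec, was also too dim to test and lay the other way, with 162 to 330 on Pparg ldi/+ arrays against 68.5 to 71.4.

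**Figure D4:**
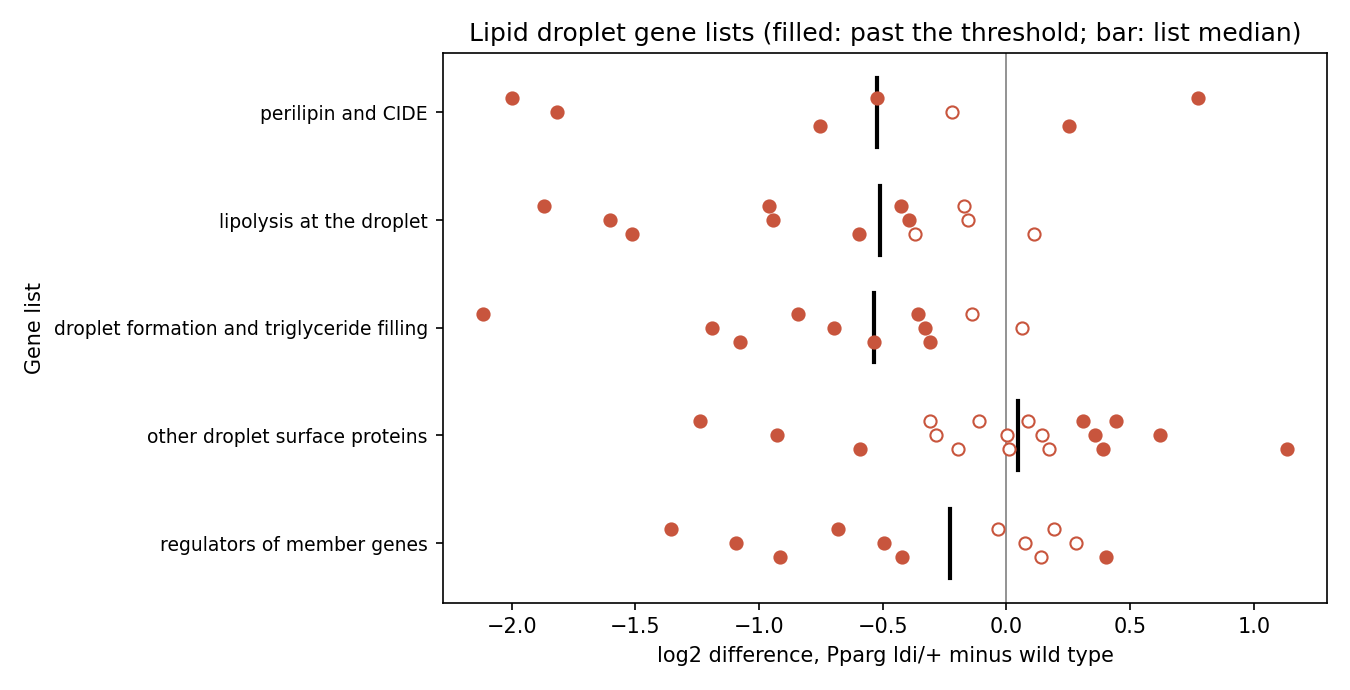
Log2 difference, Pparg ldi/+ minus wild type (horizontal axis), of each tested gene in the perilipin and CIDE set and in 4 lists of droplet genes and regulators (vertical axis). Filled points passed the threshold, and bars are list medians, at -0.51 for lipolysis, -0.53 for droplet formation, 0.05 for other surface proteins and -0.23 for regulators.

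Some genes followed the members closely over the 6 arrays. By Pearson correlation of log2 values, Plin4 was most like Limch1, Rhbdl1 and Cped1, each at r of 0.999 or above. Cidec was most like Ehd2, Plscr4 and Acp5, also each at 0.999 or above. Plin2 was most like Pigs (r = 0.999), Nubp2 (r = 0.997) and Manf (r = 0.996). The 6 arrays fall into the genotypes, so such values follow from the gap between them and are a description only. An r above 0.95 was reached by 804 genes for Plin4 (7.18%), 741 for Cidec (6.62%) and 381 for Plin2 (3.4%).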

How the data were processed

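RNA of 6 mice was measured on 1 array each, and genotype and number were taken from the sample titles. The authors deposited a linear intensity for every probe set of every array, on a scale set by MAS5 per the submitters' processing notes, which mention that tool for Pparg ldi/+ arrays 1 and 2 only and state no version or target. No detection calls were used here. Deposited trimmed means were 202 to 236 in Pparg ldi/+ and 201 to 222 in wild type.

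Arrays were brought to a trimmed mean of 500 (2% trimmed at each end), and log2 of the value plus 32 was computed from the deposited intensities. Control probe sets (64 of 45101) were left out. Symbols came from the platform annotation, updated by gene number through a RefSeq table of GRCm38.p6 (34741 of 34945 matched). A gene was read by its brightest probe set, passing over x_at sets where another existed, and tested if its mean reached 7.46. The test was limma 3.58.1 under R 4.3.3, with an intensity trend in eBayes and no covariate, and the script was tested on simulated data.

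The members and lists were chosen with earlier results of these data known. In each list the 3 called genes of largest difference and those against its majority are named. The other genes named are Pparg, the 3 genes most correlated with Plin4, Cidec and Plin2, and Pnpla2, Abhd5, Ppara, Creb3l3, markers or neighbours chosen after their values were seen. Alternatives changed the offset, scaling, filter, variance model, probe sets, threshold, block and arrays used. The numbers in the titles gave correlations of -0.127, -0.086 and -0.095 between same-numbered arrays' deviations from their group means.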

Additional observations from a re-analysis of the deposited data

How the results depend on the processing

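Plin2, Plin4 and Cidec kept direction and call under all 20 alternatives, between 0.60 and 0.88, -1.88 and -1.76, and -2.07 and -1.89. Leaving out 1 array at a time, 1 to 2 members rose and 2 to 4 fell. The count that rose was 1, through loss of Plin3, with unscaled values, no intensity trend, every probe set tested, a threshold of 0.01, the title's number as a replicate block, or Pparg ldi/+ array 3 alone. The count that fell was 2 with no filter, the mean of probe sets, a threshold of 0.01 or array 3 alone. Quantile normalisation ended the call of Cidea (-0.75, limma adjusted p = 0.0552). Cideb turned to 0.14 without Pparg ldi/+ array 3, and the cause was not tested. Cideb was tested in 16 of the 20 alternatives and fell below the filter in the other 4: the 70th percentile filter, without Pparg ldi/+ array 2 (plain difference -0.54), without wild-type array 3 (0.28) and array 3 alone (-0.94). Single arrays left out thus gave -0.56 to 0.28, or -0.56 to 0.14 where it was tested. Over all genes, the 3668 called became 5830 probe sets when each was tested, 2238 at a threshold of 0.01 and 1616 with array 3 alone, which tests fewer arrays.

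Lipolysis genes that fell were 8, and 5 with array 3 alone. Other surface genes that rose were 6, and 3 with no filter, 3 with the mean of probe sets, 3 at a threshold of 0.01, 1 with array 3 alone and 3 to 6 leaving out single arrays; those that fell were 3 to 5 in the last. Regulators that rose were 1, and 2 with no filter, 0 with the mean of probe sets, 0 with array 3 alone and 1 to 2 leaving out single arrays. The replicate block changed no other member's call; in it Plin3 was at 0.25 (limma adjusted p = 0.0752). The numbers share no stated source, so no pairing was used. Without detection calls, nothing could be set above or below background. The planned Plin2 minus Plin1 difference was not run because no probe set had Plin1 as its single symbol.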
